A study of Mus musculus with 374 samples.

Results

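Maturing red blood cell precursors rid themselves of organelles and of most proteins, and the 10 genes described here take part in that clearance or supply the machinery for it. They were taken by name and not by their level: Bnip3l, Trim58, Trim10, Fbxo7, Xpo7, Ube2l6, Ube2o, Gabarapl2, Map1lc3b and Ubb. All 10 were among the 19829 mouse gene rows of the count table. Of these, Trim10, Ube2o and Ube2l6 stood higher in erythroblasts than in progenitor/stem cells by at least 2-fold. The number past 2-fold was 3, but 6 with haemoglobin RNA left out of the totals and 9 when wells were scaled by scran size factors. Xpo7 stood lower by at least 2-fold, by less than that without haemoglobin or as a mean over wells, and higher with scran. For Ubb, Map1lc3b, Trim58 and Fbxo7 the interval of the ratio included 1.

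An erythroblast loses its mitochondria by autophagy, in which a receptor on the mitochondrion binds small ubiquitin-like proteins of the ATG8 family on a growing membrane that then encloses it. Soluble and membrane proteins are tagged with ubiquitin by a chain of enzymes (E1 activating, E2 conjugating and E3 ligase enzymes) and degraded by the proteasome. The nucleus condenses and is expelled, and a reticulocyte is left. CD44 is an adhesion receptor whose surface level falls as erythroblasts mature, while Ter119 marks the erythroid lineage and haemoglobin RNA accumulates.

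The cells came from 1 female C57BL/6 mouse of 10 to 13 weeks and were sorted singly, with the fluorescence of each cell recorded (index sorting), into the wells of 1 plate. RNA was counted with an adapted CEL-seq2 protocol, which reads transcripts at their 3′ end and marks each molecule by a unique molecular identifier (UMI). The 374 wells held 96 erythroblasts (Ter119+ CD44+, with a forward scatter area, FSC-A, that was mid or high), 95 progenitor/stem cells (Lin- Kit+ Sca1+), 96 granulocytes (Mac1+ Gr1+) and 44 B lymphocytes (B220+, low FSC-A) from bone marrow, and 43 T lymphocytes (CD3+, low FSC-A) from the thymus. No cell was treated or genetically altered. Each population was thus 1 sample of 1 mouse, and the gate held CD44+ cells only, so that cells which had lost CD44 were not sampled. No test between populations was possible and no p-value is given. Intervals are exact 95% intervals (Poisson for levels, binomial for shares, conditional binomial for ratios), and they cover counting error only, not differences between mice. Those for levels and ratios also leave out the spread between the wells of a group.

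The wells summed to 666728 UMIs on mouse genes in erythroblasts, 834812 in progenitor/stem cells, 403506 in granulocytes, 135808 in B lymphocytes and 200396 in T lymphocytes. The erythroblast wells held between 466 and 20457 UMIs (median 6113.5). The 7 erythroblast markers (haemoglobin genes, Car2, Alas2 and Slc4a1) made up 24.7% of erythroblast UMIs and between 1.33% and 2.92% in the other populations, so the label held. Macrophages that nurse erythroblasts were checked with 6 markers, which gave 5 UMIs in 2 erythroblast wells with Cd163 at 0. The 4 markers of megakaryocytes and platelets gave 32 UMIs in 23 erythroblast wells, with Pf4 and Ppbp at 0 and all 32 from Itga2b and Gp9. The 6 granulocyte markers made up 0.139% of erythroblast UMIs against 13.8% in granulocytes. Of all wells, 7 resembled the sum of another population more than that of their own, 1 of them an erythroblast well. Leaving these out changed none of the counts of members past a threshold.

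Haemoglobin RNA bears on every level. It was 23.5% of UMIs in erythroblasts, which lowers the counts-per-million value (CPM, on UMIs of mouse genes) of all other genes there, and it was 1.21% in progenitor/stem cells, 1.54% in granulocytes, 2.83% in B lymphocytes and 1.77% in T lymphocytes. Because lymphocytes should not make haemoglobin, this spread gives a background for erythroid RNA outside erythroblasts. For each gene the UMIs that would be present had it spread in the same proportion are given below beside the UMIs observed. The haemoglobin sums behind these values were uneven among wells. In progenitor/stem cells 1 well held 1419 of the 10131 haemoglobin UMIs. The highest well reached 181443 CPM in B lymphocytes (median 17965) and 119718 CPM in T lymphocytes (median 16726).

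On GRCm38 (GENCODE M21 annotation), Trim10 lies at chr17:36869574-36877833 on the plus strand, Ube2o at chr11:116537740-116581447 on the minus strand, Ube2l6 at chr2:84798828-84810335 on the plus strand and Xpo7 at chr14:70654246-70766628 on the minus strand. Bnip3l lies at chr14:66985239-67008877 (minus), Trim58 at chr11:58640465-58652404 (plus), Fbxo7 at chr10:86021972-86051873 (plus) and Gabarapl2 at chr8:111940703-111953612 (plus). Map1lc3b lies at chr8:121590361-121598760 (plus) and Ubb at chr11:62551171-62553213 (plus). No source used here names the build or annotation behind the counts, so these positions come from the annotation and not from the count table. A 3′ count is read from the last exon, and 58 exonic bases at the 3′ end of Map1lc3b overlap Zcchc14 on the opposite strand. The use of strand in counting is not stated, so reads of that overlap cannot be assigned to either gene with certainty. Many other genes also hold some of the 40-base words from the last 300 bases of Map1lc3b. Examples are the pseudogene Gm6054 with 4.5% of them and Ube2c with 1.38%. The Ubb count is uncertain too: of the 40-base words in its last 300 bases, 85.1% also occur in the pseudogene Gm1821 and 45.6% in Gm8797, which had 11 and 225 UMIs of their own.

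RefSeq promoters (250 bases before to 50 after the start, GRCm38.p6) were found for 7 of the 10 genes, without Bnip3l, Xpo7 and Ube2o. They were searched for the binding motif of GATA factors, read on either strand. It was spelled as AGATAA or, with another last letter, as AGATAG, and both spellings were also taken with T in first place (the match TGATAA and likewise the match TGATAG). Of 32851 promoters of this length, 29.8% held it. Trim10 held 1 match, starting 163 bases before the start, and Trim58 held 1 at 247 bases before it, while the promoters of the other 5 genes held none. The promoters of Trim10 and Ube2l6, the genes with a promoter here whose level stood apart most in erythroblasts, are shown 5′ to 3′ with the GATA match in capitals. Both are on the plus strand, Trim10 at chr17:36869324-36869623 and Ube2l6 at chr2:84798578-84798877. A second motif, the CACCC box, was searched on either strand as CCACACCC, CCGCACCC, CCCCACCC, CCACGCCC, CCGCGCCC or CCCCGCCC, and 32.3% of the promoters held it. Ube2l6 held 2 matches, Gabarapl2 and Map1lc3b 1 each and 1 of 2 Ubb promoters 1, and these are left in lower case. A match is a description of letters and not evidence of binding.
Trim10: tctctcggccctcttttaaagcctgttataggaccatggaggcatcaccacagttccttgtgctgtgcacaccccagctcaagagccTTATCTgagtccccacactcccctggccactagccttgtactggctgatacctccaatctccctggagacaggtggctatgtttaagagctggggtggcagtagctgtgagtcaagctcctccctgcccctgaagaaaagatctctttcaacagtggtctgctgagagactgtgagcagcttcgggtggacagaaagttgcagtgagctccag
Ube2l6: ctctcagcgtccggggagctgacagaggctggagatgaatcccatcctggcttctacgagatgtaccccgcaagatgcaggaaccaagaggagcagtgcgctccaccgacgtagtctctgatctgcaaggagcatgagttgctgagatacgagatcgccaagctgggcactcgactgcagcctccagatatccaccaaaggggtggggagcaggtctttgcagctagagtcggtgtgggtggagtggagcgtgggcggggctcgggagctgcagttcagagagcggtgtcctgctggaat

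Of the 10 genes, 6 had their highest CPM of the 5 populations in erythroblasts (Bnip3l, Trim58, Trim10, Ube2l6, Ube2o and Gabarapl2), against 18.7% of the 6317 genes with at least 50 UMIs over all wells. The erythroblast intervals of Trim10, Ube2l6 and Ube2o did not overlap that of the population next in order of CPM. What share of all genes would show the same was not computed. The interval of Ube2l6 (19.5 to 48.1 CPM) did overlap those of granulocytes (1.53 to 21.7) and B lymphocytes (0 to 27.2), which ranked lower. At least 2-fold higher in erythroblasts than in progenitor/stem cells were 3 of 10, where sums under 3 UMIs were set to 3, against 14.8% of the 4792 genes with at least 50 UMIs in both together. The count was 6 without haemoglobin in the totals, where 18.8% of all genes were higher, and 9 with scran, where 32.5% were. At least 2-fold lower was 1 of 10, Xpo7 (higher with scran size factors), against 40.9%. The median log2 ratio over those genes was -0.73, so a gene at equal CPM in both populations lay above the median. The backgrounds rest on genes of 50 UMIs or more, over all wells for the first and in both populations together for the rest. In each case 7 of the members reached that number, and Trim58, Fbxo7 and Ube2l6 did not. Trim58 and Ube2l6 are among the 6 genes highest in erythroblasts.

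**Figure D1:**
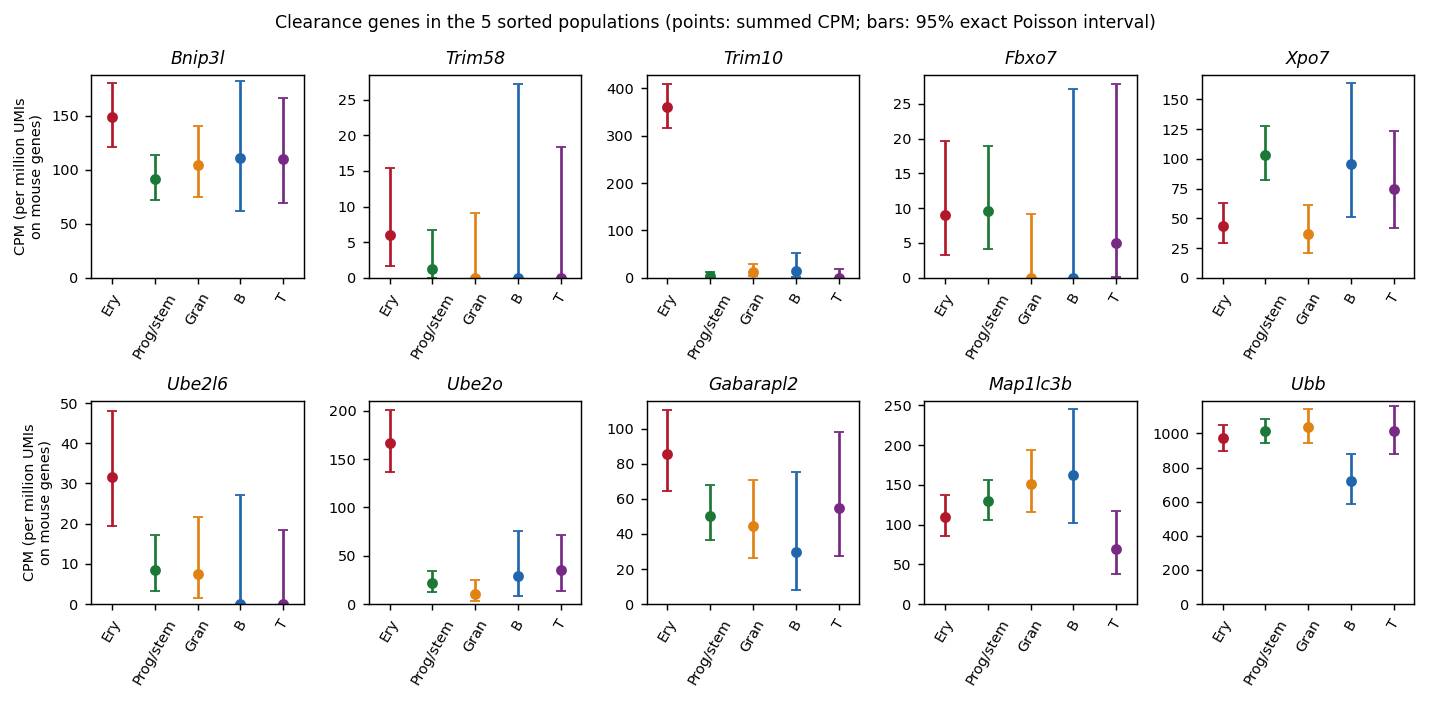
Level of each gene in CPM (on UMIs of mouse genes) in erythroblasts (Ery), progenitor/stem cells (Prog/stem), granulocytes (Gran), B and T lymphocytes; points are the sum over the wells of a population and bars are exact 95% Poisson intervals. Trim10 and Ube2o stood clear of all other populations at 360 and 166 CPM, Xpo7 was lower in erythroblasts (43.5 CPM) than in progenitor/stem cells (103 CPM), an order that turned with scran size factors, and Ubb lay between 722 and 1038 CPM throughout.

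Trim10 is a RING finger protein of the tripartite motif family, known from erythroid cells. It gave 240 UMIs in erythroblasts (360 CPM, 316 to 409), 4 in progenitor/stem cells (4.79 CPM), 5 in granulocytes (12.4 CPM), 2 in B lymphocytes (14.7 CPM) and 0 in T lymphocytes, where 3 UMIs would be 15.0 CPM. The ratio of CPM was 75.1-fold over progenitor/stem cells (29.0 to 278), which placed it at percentile 99.9 of the genes tested. It was 29.0-fold over granulocytes (12.3 to 90.3), 24.4-fold over B lymphocytes (6.69 to 203) and at least 24.0-fold higher than in T lymphocytes at 3 UMIs, with a lower limit of 19.4 once the counting error of both sums is taken in. The erythroblast interval lay above all others, and the remaining populations overlapped among themselves.

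Outside erythroblasts the few Trim10 UMIs did not exceed the haemoglobin background in any population. Spread like haemoglobin, 15.5 UMIs would have been in the progenitor/stem cells, where 4 were seen (interval 1.09 to 10.2), and 5.42 in the T lymphocytes, where 0 were seen. In granulocytes 5 were seen against 9.52, and in B lymphocytes 2 against 5.88. Among erythroblast wells 82 of 96 (85.4%, 76.7 to 91.8) had a Trim10 UMI, with a median of 350 CPM and a maximum of 2040 CPM. With wells thinned to 1000 UMIs, which left out 1 erythroblast and 2 granulocyte wells, the share was 31.6%, against 0.447% in progenitor/stem cells and 1.38% in granulocytes. Haemoglobin took part of the 1000 UMIs in erythroblasts.

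Ube2o is a large enzyme with E2 and E3 activity that remodels the proteome of reticulocytes. It gave 111 UMIs in erythroblasts (166 CPM, 137 to 200), 18 in progenitor/stem cells (21.6 CPM), 4 in granulocytes (9.91 CPM), 4 in B lymphocytes (29.5 CPM) and 7 in T lymphocytes (34.9 CPM). It was 7.72-fold higher in erythroblasts than in progenitor/stem cells (4.67 to 13.5; percentile 95.0), 16.8-fold than in granulocytes (6.38 to 62.7), 5.65-fold than in B lymphocytes (2.15 to 21.1) and 4.77-fold than in T lymphocytes (2.24 to 12.1). Unlike Trim10, it exceeded the haemoglobin background in progenitor/stem cells, with 18 UMIs against 7.17, and in T lymphocytes, with 7 against 2.51. The 4 UMIs in granulocytes (against 4.40) and the 4 in B lymphocytes (against 2.72) did not exceed it. In erythroblasts 56 of 96 wells (58.3%) had a UMI, and 1 well held 16 of the 111.

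Ube2l6 is an E2 enzyme that conjugates ubiquitin and the ubiquitin-like protein ISG15. It gave 21 UMIs in erythroblasts (31.5 CPM, 19.5 to 48.1), spread over 18 wells with no more than 2 in any of them, 7 in progenitor/stem cells (8.39 CPM), 3 in granulocytes (7.43 CPM) and 0 in either kind of lymphocyte. It was 3.76-fold higher in erythroblasts than in progenitor/stem cells (1.54 to 10.5) and 4.24-fold than in granulocytes (1.26 to 22.2). Counted against 3 UMIs, it was at least 1.43-fold higher than in B lymphocytes and at least 2.10-fold higher than in T lymphocytes, and with the counting error of its own 21 UMIs the lower limits were 1.06 and 1.57. It exceeded the haemoglobin background in progenitor/stem cells only, with 7 UMIs against 1.36.

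The remaining E3 ligase components were near the limit of detection. Trim58, an E3 ligase that acts on dynein during enucleation, gave 4 UMIs in erythroblasts (6.00 CPM, 1.63 to 15.4), each in a different well, 1 in progenitor/stem cells and 0 elsewhere. Its ratio over progenitor/stem cells was 5.01-fold with an interval of 0.496 to 247, so no difference was detectable at this depth. Fbxo7, the substrate-binding subunit of a ubiquitin ligase, gave 6 UMIs in erythroblasts (9.00 CPM), 8 in progenitor/stem cells (9.58 CPM), 1 in T lymphocytes and 0 in granulocytes and B lymphocytes. The exact upper limit of these counts of 0 was 9.14 CPM in granulocytes and 27.2 CPM in B lymphocytes, against an erythroblast interval of 3.30 to 19.6, so no difference was detectable at this depth.

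**Figure D2:**
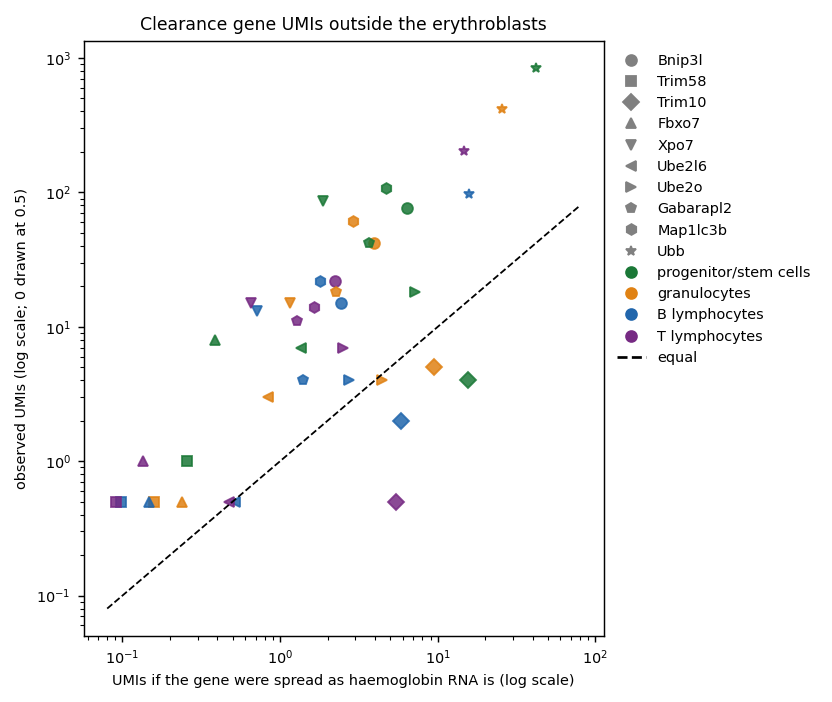
UMIs observed in the 4 populations other than erythroblasts (vertical axis, log scale, with 0 drawn at 0.5) against the UMIs present had the gene spread as the 4 haemoglobin genes did (horizontal axis, log scale); shapes are genes, colours are populations and the dashed line marks equality. All 4 Trim10 points lie under the line, those of Bnip3l, Xpo7, Map1lc3b and Ubb lie well above it, and those of Ube2o run from 4 UMIs against 4.40 in granulocytes to 18 against 7.17 in progenitor/stem cells.

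The mitophagy receptor Bnip3l (also called Nix), which sits on the outer mitochondrial membrane, was found in every population. It gave 99 UMIs in erythroblasts (148 CPM, 121 to 181), 76 in progenitor/stem cells (91.0 CPM, 71.7 to 114), 42 in granulocytes (104 CPM), 15 in B lymphocytes (110 CPM) and 22 in T lymphocytes (110 CPM). The erythroblast level was 1.63-fold that of progenitor/stem cells (1.20 to 2.23; percentile 82.1 of the genes tested). Against the other 3 populations the ratio lay between 1.34 and 1.43, with each interval reaching below 1. In all 4 it exceeded the haemoglobin background many times over, for example 76 UMIs against 6.39 in progenitor/stem cells. The log2 ratio of Bnip3l over progenitor/stem cells was 0.71 in CPM, 1.08 without haemoglobin in the totals and 2.10 with scran size factors. Its size thus depended on the scaling.

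Both ATG8 family members were broadly present, and their order differed. Gabarapl2 gave 57 UMIs in erythroblasts (85.5 CPM, 64.8 to 111), 42 in progenitor/stem cells (50.3 CPM), 18 in granulocytes (44.6 CPM), 4 in B lymphocytes (29.5 CPM) and 11 in T lymphocytes (54.9 CPM). It was 1.70-fold higher in erythroblasts than in progenitor/stem cells (1.12 to 2.59), 1.92-fold than in granulocytes (1.11 to 3.46) and 2.90-fold than in B lymphocytes (1.07 to 11.0), whereas the interval over T lymphocytes reached below 1 (0.808 to 3.29). Map1lc3b, which encodes LC3B, gave 73 UMIs in erythroblasts (109 CPM, 85.8 to 138), 108 in progenitor/stem cells (129 CPM), 61 in granulocytes (151 CPM), 22 in B lymphocytes (162 CPM) and 14 in T lymphocytes (69.9 CPM). All 4 of its intervals for the ratio included 1, and neighbours in its order could not be told apart. The log2 ratio of Gabarapl2 over progenitor/stem cells was 0.76 in CPM, 1.13 without haemoglobin in the totals and 2.28 with scran size factors.

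Ubb, a gene that encodes several ubiquitin units in a row, was the member with the most UMIs, 648 in erythroblasts (972 CPM, 899 to 1050), 846 in progenitor/stem cells (1013 CPM), 419 in granulocytes (1038 CPM), 98 in B lymphocytes (722 CPM, 586 to 879) and 203 in T lymphocytes (1013 CPM). The ratio of erythroblasts to progenitor/stem cells was 0.959 (0.864 to 1.06), and 4 of the 5 populations could not be told apart. Erythroblasts were 1.35-fold above B lymphocytes (1.09 to 1.68). With haemoglobin left out of the totals the log2 ratio over progenitor/stem cells turned from -0.06 to 0.31 for Ubb, from -0.24 to 0.13 for Map1lc3b and from -0.09 to 0.28 for Fbxo7. With scran it was 1.43, 0.90 and 1.51, so their direction depended on the scaling.

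Xpo7 is a nuclear transport receptor. It gave 29 UMIs in erythroblasts (43.5 CPM, 29.1 to 62.5), 86 in progenitor/stem cells (103 CPM, 82.4 to 127), 15 in granulocytes (37.2 CPM), 13 in B lymphocytes (95.7 CPM) and 15 in T lymphocytes (74.9 CPM). The level in progenitor/stem cells was 2.37-fold that in erythroblasts (1.54 to 3.74), and that in B lymphocytes 2.20-fold (1.05 to 4.37). On the log2 scale the ratio of erythroblasts to progenitor/stem cells was -1.24, at percentile 34.7 of the genes tested, and it turned to 1.35 with scran size factors, which divide each well by a factor estimated from pooled wells and moved the median of all genes from -0.73 to 0.23. It was -0.87 without haemoglobin in the totals and -0.60 as the mean over wells of CPM per well, both under 2-fold.

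**Figure D3:**
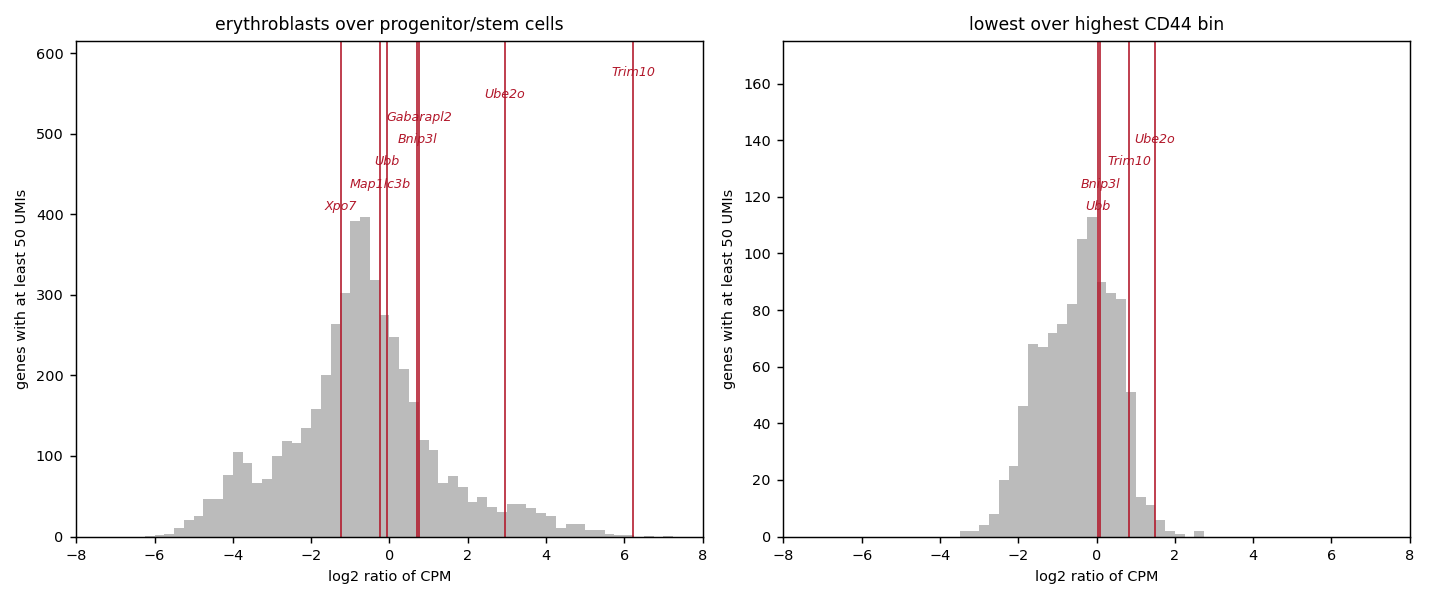
Number of genes with at least 50 UMIs (vertical axis) by log2 ratio of CPM (horizontal axis, bins of 0.25), for erythroblasts over progenitor/stem cells on the left and for the lowest over the highest CD44 bin on the right; red lines mark the members that reached 50 UMIs. Trim10 (6.23) and Ube2o (2.95) lie in the right tail of the left panel, and Ube2o (1.49) and Trim10 (0.83) also lie to the right in the right panel.

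The way Xpo7 UMIs lay among wells differed between the populations. In progenitor/stem cells 49 of 95 wells had a UMI, and in erythroblasts 13 of 96 (13.5%, 7.41 to 22.0). In those 13 wells haemoglobin took a median of 46.4% of UMIs, against 23.7% in the 83 erythroblast wells without Xpo7, and 12 of the 13 lay above the erythroblast median of 26.6%. Their median CD44 fluorescence was 1934 against 2682 arbitrary units, and they were not deeper (median 5220 UMIs against 6455). Within these wells Xpo7 reached 5 UMIs in 1 well and 4 in each of 2 wells, with a variance over mean of 2.80 over all 96 wells. Trim10 was also found in 12 of the 13 wells and Ube2o in 11. Whether they formed a stage of their own was not tested.

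The 96 erythroblast wells were then ordered by CD44 fluorescence and divided into 4 bins of 24 wells, from 976 to 1892 in the lowest, 1901 to 2526 and 2527 to 3708 in the middle bins, and 3760 to 6170 in the highest. From the lowest to the highest bin haemoglobin made up 33.9%, 31.5%, 22.6% and 13.5% of UMIs. Wells had a median of 5002, 5440.5, 7340 and 8486 UMIs in the same order, and the median share of ERCC spike-in UMIs fell by bin from 7.16% to 4.07%. Ter119 fluorescence had a median of 8127 in the lowest bin and 5665.5 in the highest, and FSC-A one of 111000 and 130500. Over the 96 wells Spearman's rho with CD44 was -0.59 for the haemoglobin share, 0.51 for FSC-A, 0.54 for UMIs and -0.56 for the ERCC share, a description of wells that share 1 mouse and 1 plate. CD44 thus moved together with FSC-A, UMIs and haemoglobin, and their parts cannot be told apart.

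In the lowest bin 5 of the 10 genes were at least 1.5-fold higher than in the highest (Trim10, Xpo7, Ube2l6, Ube2o and Gabarapl2), against 13.2% of the 1036 genes with at least 50 UMIs in both bins together, of which 42% were at least 1.5-fold lower. The count was 8 with scran (40.2% of all genes), 3 as UMIs per well (1.45%), 3 per ERCC UMI (1.74%) and 3 with 2 bins of 48 wells (5.60%). The median log2 ratio of these genes was -0.38. Of the members, only Bnip3l, Trim10, Ube2o and Ubb reached 50 UMIs here.

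**Figure D4:**
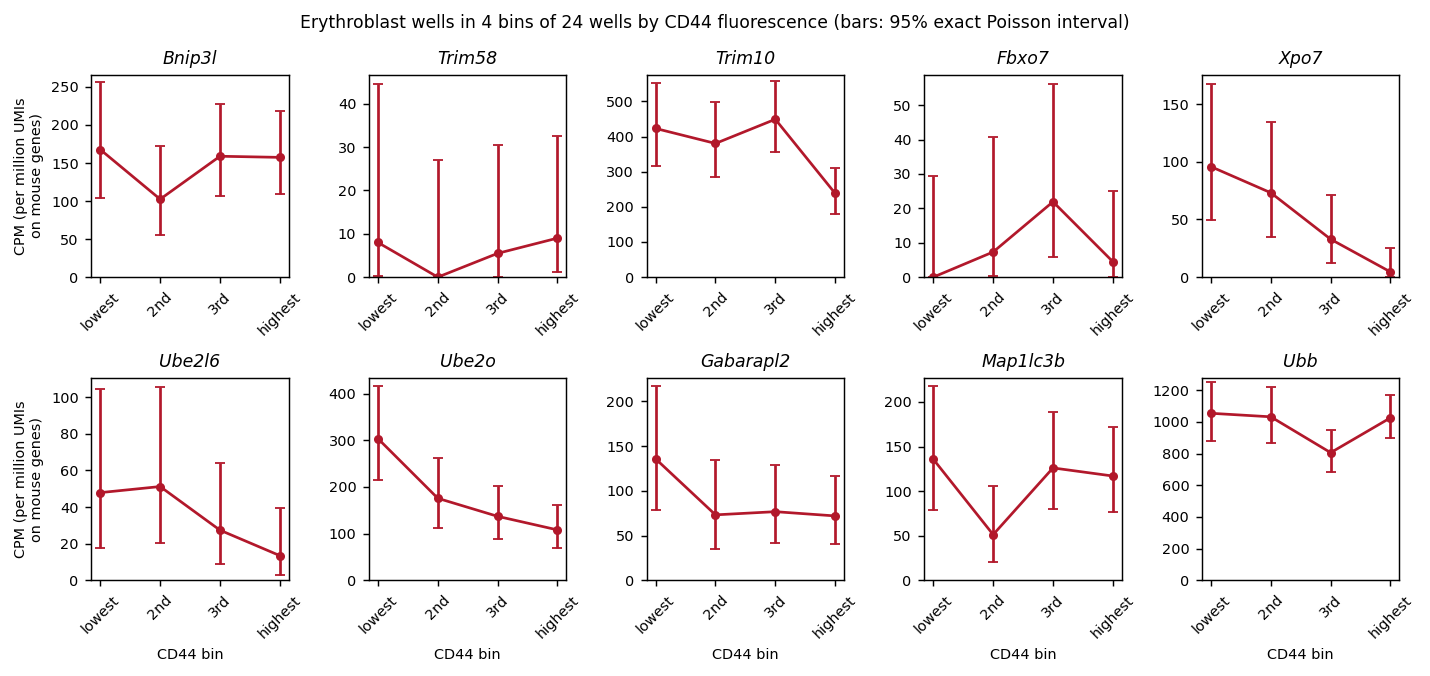
Level of each gene in CPM in the 4 CD44 bins of 24 erythroblast wells, from lowest to highest CD44; points are sums over the wells of a bin and bars are exact 95% Poisson intervals. Ube2o stepped down from 303 to 108 CPM and Xpo7 from 95.8 to 4.50 CPM, Trim10 was lower in the highest bin only (238 CPM), and Ubb showed no trend.

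Ube2o gave 38, 24, 25 and 24 UMIs from the lowest to the highest CD44 bin, which is 303, 176, 137 and 108 CPM. The lowest bin was 2.81-fold above the highest (1.64 to 4.90), at percentile 98.8 of the genes tested. The well with 16 UMIs lay in the lowest bin, with a CD44 value of 1240, 3432 UMIs in all and the highest haemoglobin share of any erythroblast well, 52.3%. It also held 7 UMIs of Trim10 and 5 of Bnip3l. Without it the log2 ratio of Ube2o was 0.74 in place of 1.49.

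Trim10 gave 53, 52, 82 and 53 UMIs, or 423, 380, 449 and 238 CPM. Its intervals overlapped in the first 3 bins, and the highest bin (179 to 312) lay under the lowest (317 to 554). The ratio of lowest to highest was 1.78-fold (1.19 to 2.65; percentile 93.4). In UMIs per well, with no scaling, the lowest and the highest bin were equal at 2.21 each, so the difference in CPM was one of proportion among all UMIs. For Ube2o the same unscaled values were 1.58 and 1.00. Of the 38 Ube2o UMIs in the lowest bin 1 well held 16, so this difference rested on that well.

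Xpo7 gave 12, 10, 6 and 1 UMIs, or 95.8, 73.2, 32.9 and 4.50 CPM, a ratio of lowest to highest of 21.3-fold with an interval of 3.15 to 911. With the single UMI of the highest bin set to 3 the log2 ratio was 2.83 in place of 4.41. Xpo7 was found in 6, 4, 2 and 1 wells. Ube2l6 gave 6, 7, 5 and 3 UMIs (47.9, 51.2, 27.4 and 13.5 CPM), and its ratio of 3.55 had an interval that included 1 (0.758 to 21.9). Of these 2 genes, Xpo7 alone separated the outer bins beyond counting error, which leaves out the spread between wells.

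**Figure D5:**
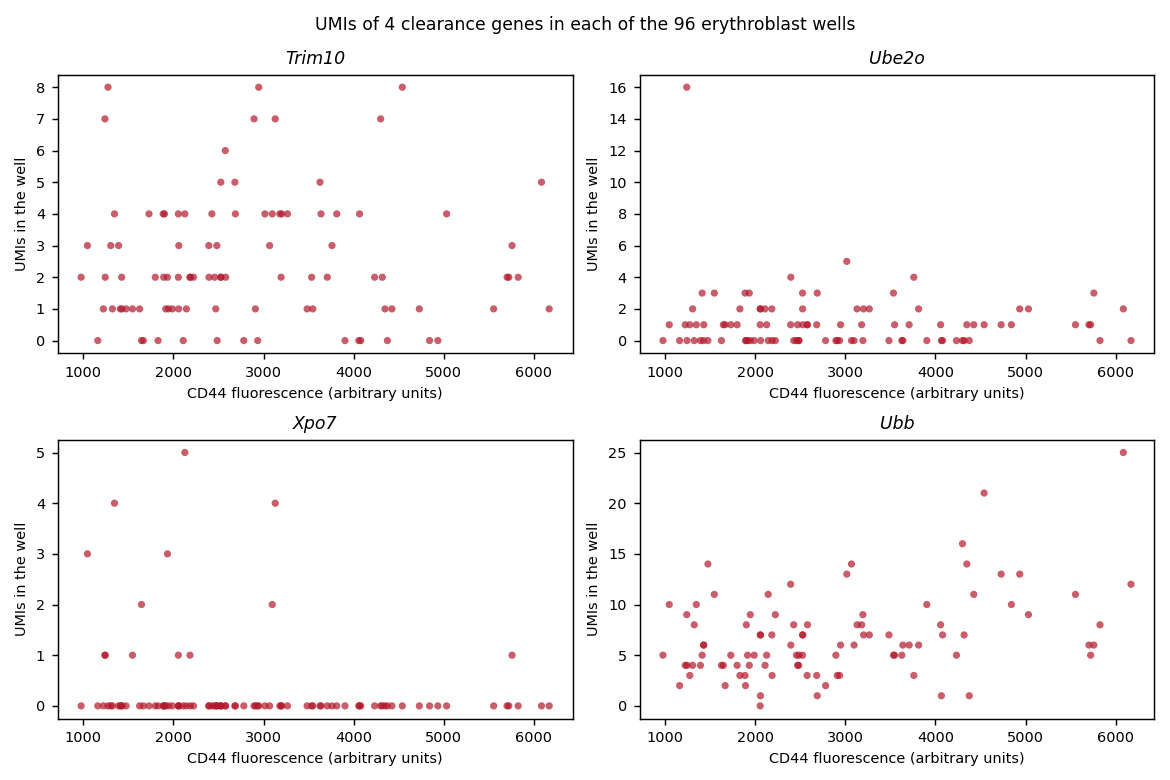
UMIs of Trim10, Ube2o, Xpo7 and Ubb (vertical axes) in each of the 96 erythroblast wells against CD44 fluorescence (horizontal axes, arbitrary units); each point is a well. Of the 13 wells with Xpo7, 12 lie at CD44 values of 3130 or less, and 1 Ube2o well with 16 UMIs stands apart from the rest. The wells with the most Ubb UMIs lie at high CD44, where wells also held more UMIs in all. In CPM, Spearman's rho of Ubb with CD44 was 0.01.

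Of the autophagy genes, Gabarapl2 gave 17, 10, 14 and 16 UMIs (136, 73.2, 76.7 and 72.0 CPM), and its ratio of 1.89 had an interval that included 1 (0.896 to 3.99). Bnip3l gave 21, 14, 29 and 35 UMIs (168, 102, 159 and 157 CPM), with a ratio of 1.07 (0.589 to 1.88). Map1lc3b gave 17, 7, 23 and 26 UMIs (136, 51.2, 126 and 117 CPM), with a ratio of 1.16 (0.591 to 2.22). In CPM none of these 3 differed between the outer bins beyond counting error. With scran size factors the log2 ratios were 1.91 for Gabarapl2, 1.56 for Bnip3l and 1.20 for Map1lc3b. As UMIs per well they were 0.09, -0.74 and -0.61 in the same order, so the result depended on the scaling.

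Ubb gave 132, 141, 147 and 228 UMIs (1054, 1032, 805 and 1026 CPM), and its ratio was 1.03 (0.823 to 1.28). Per well it averaged 5.50 UMIs in the lowest bin and 9.50 in the highest, as total UMIs did. The log2 ratio of Ubb was 1.09 with scran size factors, against 0.04 in CPM. Trim58 gave 1, 0, 1 and 2 UMIs and Fbxo7 gave 0, 1, 4 and 1, too few to compare.

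Trim10 and Ube2o were found together in 49 wells, Trim10 without Ube2o in 33, Ube2o without Trim10 in 7 and neither in 7. Bnip3l and Map1lc3b shared 28 wells and were both absent from 28. Counts per well were overdispersed for Ube2o (variance over mean 3.12), Xpo7 (2.80) and Ubb (2.55), and less so for Bnip3l (1.79) and Trim10 (1.64). The Ube2o value includes the well that held 16 of its 111 UMIs, and it was not computed without that well. The value was near 1 for Gabarapl2 (1.01) and Ube2l6 (1.08), whose UMIs were scattered nearly as single draws would be. Depth differed between wells and adds to this variance.

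Other genes of these pathways came from lists chosen by function. Of 36 genes of autophagy and mitophagy, 21 had at least 50 UMIs in erythroblasts and progenitor/stem cells together. Of those, 5 were at least 2-fold higher in erythroblasts, 7 at least 2-fold lower and 9 neither, where 14.8% of all genes were higher and 40.9% lower, with a median log2 ratio of -0.69 against -0.73 for all genes. Highest were Atg4d (12.1-fold, 115 against 9.58 CPM) and Atg4a (4.45-fold), proteases that process ATG8 proteins, and Wipi1 (6.52-fold), which binds the growing membrane. Lowest were the ATG8 member Gabarapl1, at 10.5 against 122 CPM, the autophagy receptor Calcoco1 (9.00 against 55.1 CPM) and Atg3, which couples ATG8 proteins to lipid (10.5 against 57.5 CPM). Gabarapl1 thus stood 11.6-fold lower in erythroblasts, while its relative Gabarapl2 stood 1.70-fold higher.

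Of 34 genes of the ubiquitin system, 32 were in the table and 21 had 50 UMIs. Here 3 were at least 2-fold higher in erythroblasts, 3 lower and 15 neither, against the same 14.8% higher and 40.9% lower over all genes (median log2 ratio -0.24 against -0.73). The 3 that were higher were Ube2c, the E2 enzyme of the anaphase-promoting complex (1303 against 37.1 CPM), the ubiquitin-like modifier Isg15, which Ube2l6 conjugates (159 against 10.8 CPM), and the E3 ligase subunit Rnf123 (496 against 75.5 CPM). The 3 lowest were the E2 enzyme Ube2e1 (9.00 against 111 CPM), the E3 ligase Huwe1 (76.5 against 297 CPM) and the E1 enzyme Uba1 (103 against 274 CPM). Between CD44 bins Ube2c had 1884 CPM in the lowest against 837 in the highest, and Isg15 had 176 and 72.0 CPM with 22 and 16 UMIs. Ube2c was the 1 of 5 genes of this list with enough UMIs that was at least 1.5-fold higher in the lowest bin, and 0 were lower. Of the autophagy list 1 of 5 was higher and 1 lower. Of the nuclear export and enucleation list, described next, 0 of 8 were higher and 1 was lower. Over all genes 13.2% were higher and 42% lower.

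Of 20 genes of nuclear export and enucleation, 15 had 50 UMIs. In erythroblasts 4 were at least 2-fold higher, 6 lower and 5 neither, against 14.8% higher and 40.9% lower over all genes (median log2 ratio 0.37 against -0.73). The erythroid transcription factor Klf1 had 708 against 14.4 CPM, the formin Diaph3 306 against 75.5 CPM and the histone H4 methyltransferase Kmt5a 211 against 70.7 CPM. Lowest were Vim, the gene of the intermediate filament vimentin, with 13.5 against 420 CPM, the formin Diaph1 (31.5 against 170 CPM) and the small GTPase Rac2 (76.5 against 335 CPM). The 2 formins named here thus lay on opposite sides. As stage markers, Slc4a1 was 27.3-fold and Alas2 22.6-fold higher in erythroblasts, and Kit was 28.2-fold lower.

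The genes whose pattern came closest to each member were sought over 12 points (8 groups of 12 erythroblast wells in CD44 order and the 4 other populations) by Pearson's r of log2(CPM + 10) among 3899 genes with at least 100 UMIs. These points share 1 mouse and 1 plate, and depth and haemoglobin share move along them, so r is a description. For Trim10 these were March8 (0.99), Apol8 (0.99) and Fech (0.99), and for Ube2o Tent5c (0.97), Cdr2 (0.96) and Rnf123 (0.96). For Gabarapl2 they were Cdca4 (0.87), Nde1 (0.87) and Reep4 (0.85), and for Bnip3l Shc1 (0.91), Mrps18c (0.81) and Dlst (0.81). For Xpo7 they were Mapre1 (0.83), Serinc1 (0.78) and Arid4a (0.77), for Map1lc3b Anxa7 (0.81), Traf7 (0.80) and Pfdn2 (0.78), and for Ubb Ppp1r7 (0.77), Riok3 (0.76) and Gm5898 (0.75).

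Against the other populations, the counts of members at least 2-fold higher in erythroblasts were 3 of 10 over granulocytes (background 40.2%), 3 of 10 over B lymphocytes (33.8%) and 3 of 10 over T lymphocytes (28.8%), all of which share the erythroblasts. Trim10 and Ube2o were in each set, Ube2l6 in those over granulocytes and T lymphocytes, and Gabarapl2 in that over B lymphocytes. At least 2-fold lower were 0 of 10 against granulocytes (26.2%), 1 of 10, Xpo7, against B lymphocytes (16.3%) and 0 of 10 against T lymphocytes (22.5%). For Xpo7 against B lymphocytes that was lost without haemoglobin (56.9 against 98.5 CPM), and the direction turned as UMIs per well (0.302 against 0.295), per ERCC UMI and with scran. As counted, these shares of members lay near or under the background, but the 2 are not over like genes. The backgrounds rest on genes with at least 50 UMIs in both populations together. Trim58, Fbxo7, Xpo7 and Ube2l6 did not reach that number in any of these comparisons, though Xpo7 and Ube2l6 are among the members counted.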

How the data were processed

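RNA of 374 sorted single mouse cells was counted with an adapted CEL-seq2 protocol. The authors processed the reads with scPipe, which aligns reads, assigns them to exons, sorts them by well barcode and removes UMI duplicates, and deposited UMI counts per gene and well with no normalization. No source used here gives the aligner settings, genome build, annotation or strand use. The table had 19829 mouse gene rows and 74 ERCC rows, and 9 further columns that matched no labelled sample were not used. The 10 genes, the pathway and marker lists and the comparisons were chosen with earlier results of these data known. Named genes were the 10 members, the 3 highest and 3 lowest of each pathway list and the 3 nearest patterns of each member with at least 100 UMIs. The remaining genes of the stage list stand in the closing section.

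Counts were summed within populations or CD44 bins and divided by the sum over mouse genes to give CPM. Each population is 1 sample of 1 mouse, so no count model or test was run. Intervals were exact at 95%; sums under 3 UMIs were set to 3 in counts of members, and a fold against 0 UMIs is a bound at 3 UMIs. The share of genes past the threshold (2-fold, or 1.5-fold between CD44 bins) was taken over genes with at least 50 UMIs. No doublet caller was run, since cells were sorted 1 per well. Alternatives changed the scaling, the filters and the bins. Python 3.11.15, numpy 2.4.6, pandas 2.3.3, scipy 1.17.1, R 4.3.3 and scran 1.30.0 were used. Ahsp was not analysed here.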

Additional observations from a re-analysis of the deposited data

How the results depend on the processing

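The number of the 10 genes at least 2-fold higher in erythroblasts than in progenitor/stem cells was 3, and it was 6 with haemoglobin left out of the totals and 9 with scran size factors. Under scran 32.5% of all genes were at least 2-fold higher and 21.6% lower, against 14.8% and 40.9%, and their median log2 ratio moved from -0.73 to 0.23. The log2 ratio of Xpo7 turned from -1.24 to 1.35 there; the cause was not tested. The number at least 1.5-fold higher in the lowest CD44 bin was 5, and it was 8 with scran, 3 as mean UMIs per well, 3 per 1000 ERCC UMIs, 3 with 2 bins of 48 wells and 3 at a 2-fold threshold. The share of all genes higher and lower between the CD44 bins was 13.2% and 42%, and it was 40.2% and 26.1% with scran, 26.4% and 31.6% without haemoglobin, 1.45% and 75.1% as UMIs per well and 1.74% and 73.5% per ERCC UMI. The number highest in erythroblasts was 6 and at most 9. Above the haemoglobin background lay 23 pairs of gene and population, or 25 with 8 other erythroid genes as background. Bnip3l, Xpo7, Map1lc3b and Ubb each exceeded it in all 4 populations. The share over all genes was not computed, so this count shows nothing particular to the members. Leaving out the 7 wells nearest to another population, an alternative added after the data were seen like that without the Ube2o well, changed none of the counts of members past a threshold. No paired analysis was possible because each population was 1 sample of 1 mouse. Depth limits Trim58, Fbxo7 and Ube2l6, each with fewer than 25 UMIs in erythroblasts.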

Other observations

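Of 12 genes chosen to mark the stage of erythroblasts, 10 had at least 50 UMIs in the lowest and highest CD44 bins together. In the lowest bin 4 were at least 1.5-fold higher and 3 at least 1.5-fold lower, against 13.2% and 42% of all genes. Higher were the haemoglobin genes Hbb-bs (124655 CPM in the lowest bin against 47436 in the highest) and Hba-a1 (103695 against 45250 CPM), Alas2, the erythroid enzyme that starts haem synthesis (2659 against 1187 CPM), and the anion exchanger Slc4a1 (5070 against 3050 CPM). Lower were Mcm5, a subunit of the replicative helicase (248 against 612 CPM), and the nucleolar proteins Npm1 (128 against 256 CPM) and Ncl (136 against 261 CPM). Neither were the proliferation marker Mki67, with a log2 ratio of 0.55 (0.40 to 0.69), the transferrin receptor Tfrc, with -0.13 (-0.39 to 0.12), and Top2a, with -0.10 (-0.34 to 0.13). Kit (2 against 5 UMIs) and Cd44 (0 in both) had too few UMIs. Between populations Npm1 and Ncl had 163 and 184 CPM in erythroblasts against 1024 and 517 CPM in progenitor/stem cells.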
